A study of Homo sapiens with 6 samples.

Results

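The 10 genes described here encode secreted inflammatory and growth cytokines: IL6, IL11, LIF, IL1A, IL1B, IL33, IL24, IL15, IL7 and CSF1. They were chosen by name, as the probe sets whose array annotation carries one of these gene symbols, and low signals were kept. Each symbol had 1 probe set, so 10 genes of 18417 with a probe set of a single symbol are covered. RNA came from 3 established human cell lines of choroidal uveal melanoma, a tumour of the pigment cells of the eye. Cells of the lines 92.1 (80000 plated), Mel 270 and Mel 290 (100000 each) were scraped for RNA after 64 h in serum-free medium. In co-culture they grew below an insert with 0.4 µm pores that held blood T cells of healthy volunteers, activated by CD3/CD28 beads. Alone, they grew with no T cells. Per the labels, Mel 290 was already confluent at the switch to this medium and the other lines were not, so line and cell density cannot be told apart. There was 1 array per line and culture, so the 3 lines are the replicates, the spread between repeat cultures is unknown, and the number of arrays limits the precision.

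IL6, IL11 and LIF signal through receptors that share the subunit gp130, encoded by IL6ST, and activate the transcription factor STAT3. IL1A, IL1B and IL33 belong to the IL-1 family, whose receptors activate NF-kappaB and so induce further cytokines. IL15 and IL7 bind receptors with the common gamma chain and sustain lymphocytes, CSF1 drives the survival and growth of monocytes and macrophages, and IL24 is an IL-10 family cytokine first studied in differentiating melanoma cells.

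Markers of the melanocyte lineage differed between the lines. In Mel 290, the pigment cell genes MLANA (5.05 in co-culture and 4.92 alone), TYRP1 (5.02 and 5.19) and PMEL (5.97 and 6.10) had log2 levels near 5.80, the 25th percentile of all genes, which served as the filter on low values. In 92.1 and Mel 270 the same genes had levels of 11.25 or more on every array. TYR had 4.64 in co-culture and 4.79 alone in Mel 290, against 9.39 or more in the other lines. The lineage factors MITF (8.16 and 8.96) and SOX10 (7.25 and 6.84) were above the filter in Mel 290, and S100B was below it in both Mel 290 (4.69 and 4.67) and 92.1 (4.76 and 4.71). The 11 T cell markers averaged 5.73 to 6.00 on the co-culture arrays and 5.75 to 5.93 on the arrays grown alone, and none differed by more than 0.67 in a line. The highest array for the T cell receptor genes CD3D, CD3E or CD3G was 5.70 in co-culture and 5.62 alone. Of the 11 markers, 5 lay above the filter level on every array, in both cultures. They were CD7 (8.12 to 8.50), CD8A (6.04 to 6.73), CD8B (6.16 to 6.43), LCK (5.96 to 6.46) and ZAP70 (5.81 to 6.10). The 9 monocyte and macrophage markers averaged 5.97 to 6.59 in co-culture and 5.99 to 6.32 alone, with CD14 at most 6.17 and 6.08. TYROBP had 7.50 to 7.83 over the 6 arrays. CD68 had 9.3 or more on every array and was higher in co-culture by 0.20, 1.43 and 0.61 in 92.1, Mel 270 and Mel 290. FCER1G was higher by 1.10 in Mel 270 and 1.01 in Mel 290, with all 6 arrays below the filter level. No other of the 9 monocyte and macrophage markers was 2-fold higher in a line, and none was 2-fold lower. Of the 7 melanocyte markers with a probe set, 4 were at least 2-fold lower in co-culture in Mel 270, against 3.58% of all genes. They were S100B (6.20 against 9.07 alone), TYR (difference -2.10), MITF (-2.10) and MLANA (-1.20). In 92.1 only TYR was (-1.57), against 2.24% of all genes, and in Mel 290 none was, against 1.97%. An array gives no true zero, so levels near the filter cannot be told apart from background. In such bulk RNA, more cells that express a gene and more RNA per cell cannot be told apart.

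Co-culture was higher than growth alone in all 3 lines for 7 of the 10 cytokine genes, against 15.3% of all genes. The groups did not overlap for IL6 and IL24, that is, for 2 of 10 genes against 3.92% of all genes. The counts past 2-fold differed between lines. At least 2-fold higher were 8 of 10 genes in Mel 290, 4 in Mel 270 and 3 in 92.1, where 1.91%, 4.4% and 3.05% of all genes were. None of the 10 was 2-fold lower in any line, while 1.97%, 3.58% and 2.24% of all genes were in Mel 290, Mel 270 and 92.1. With low values raised to the filter level, 7, 3 and 2 of the cytokine genes were at least 2-fold higher in Mel 290, Mel 270 and 92.1, against 1.6%, 3.97% and 2.73% of all genes. These counts describe single pairs of arrays and have no test. The 10 genes and the gene lists below were chosen with earlier results of these data known. Counts of them against all genes are thus descriptions. The level plot shows every value.

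**Figure D1:**
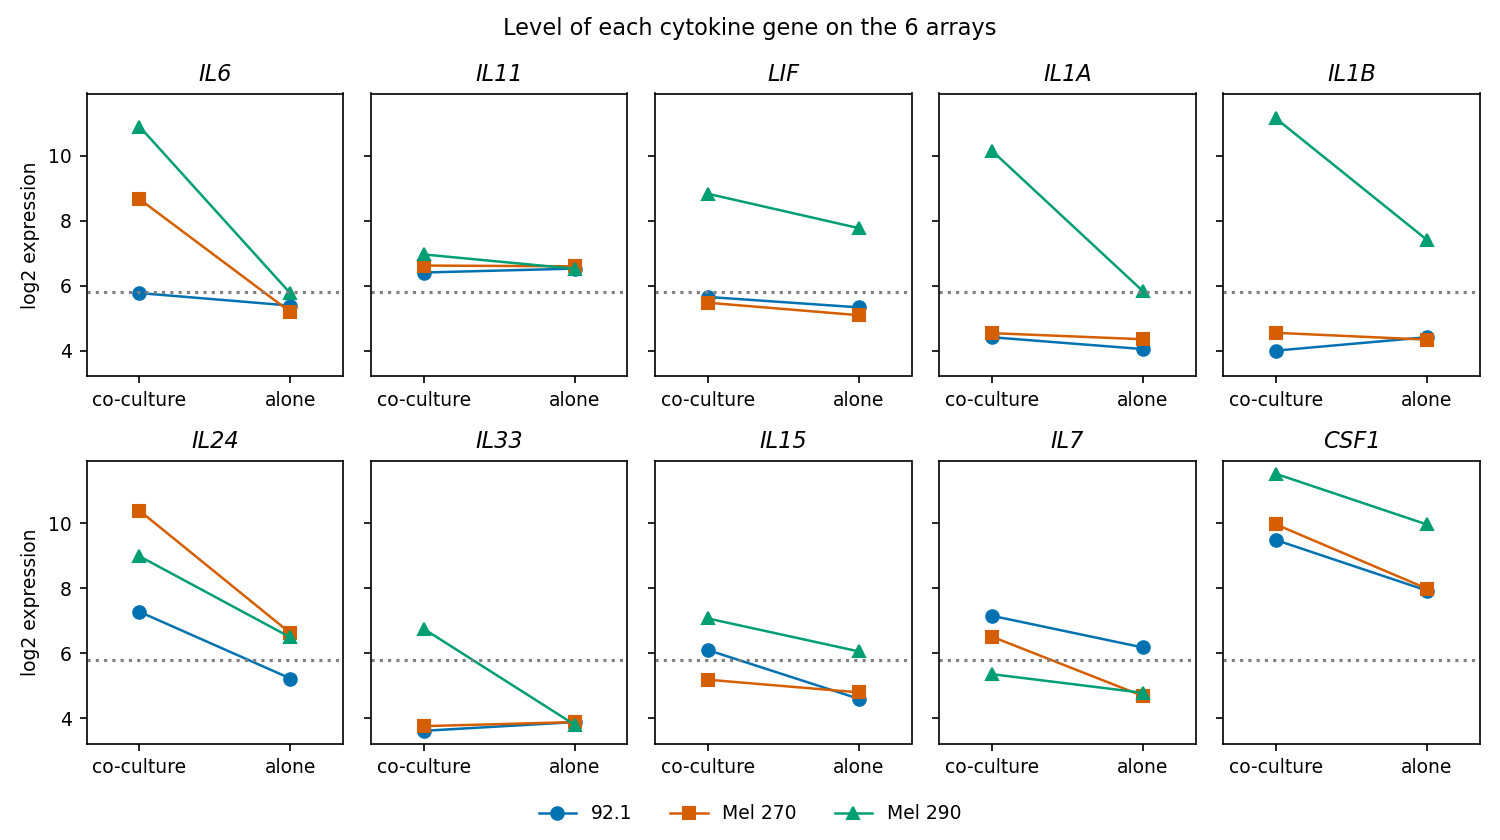
Log2 expression of the 10 cytokine genes (vertical axis) in co-culture (left) and alone (right) for 92.1 (circles), Mel 270 (squares) and Mel 290 (triangles), 1 array per point and a line joining the arrays of a cell line; the dotted line is the filter level of 5.80. IL6 spreads from 5.78 to 10.91 in co-culture and lies at 5.19 to 5.77 alone, while IL1A and IL1B exceed 10 in the co-culture of Mel 290 and in no other array.

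CSF1 alone of the tested cytokine genes passed the test across lines. It rose, in a fit of co-culture against alone with cell line as a block (limma, Benjamini-Hochberg adjustment over 13813 tested genes, threshold 0.05). That is 1 of 6 tested members higher, against 0.413% of tested genes, and 0 of 6 lower, against 0.0362%. At an unadjusted p under 0.05 in limma, 4 of the 6 were higher (IL6, LIF, IL24 and CSF1), where 7.02% of tested genes were, and 0 lower, where 13% were. IL6 and LIF passed the filter only through the arrays in which they are high, so these counts are not read against those shares. The other 4 members, IL1A, IL33, IL15 and IL7, had a mean level below the filter and were not tested in that fit. IL7 missed the filter by 0.016. With no filter, all 10 were tested among 18417 genes, of which 0.282% were higher, and CSF1 was again the member called.

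**Figure D2:**
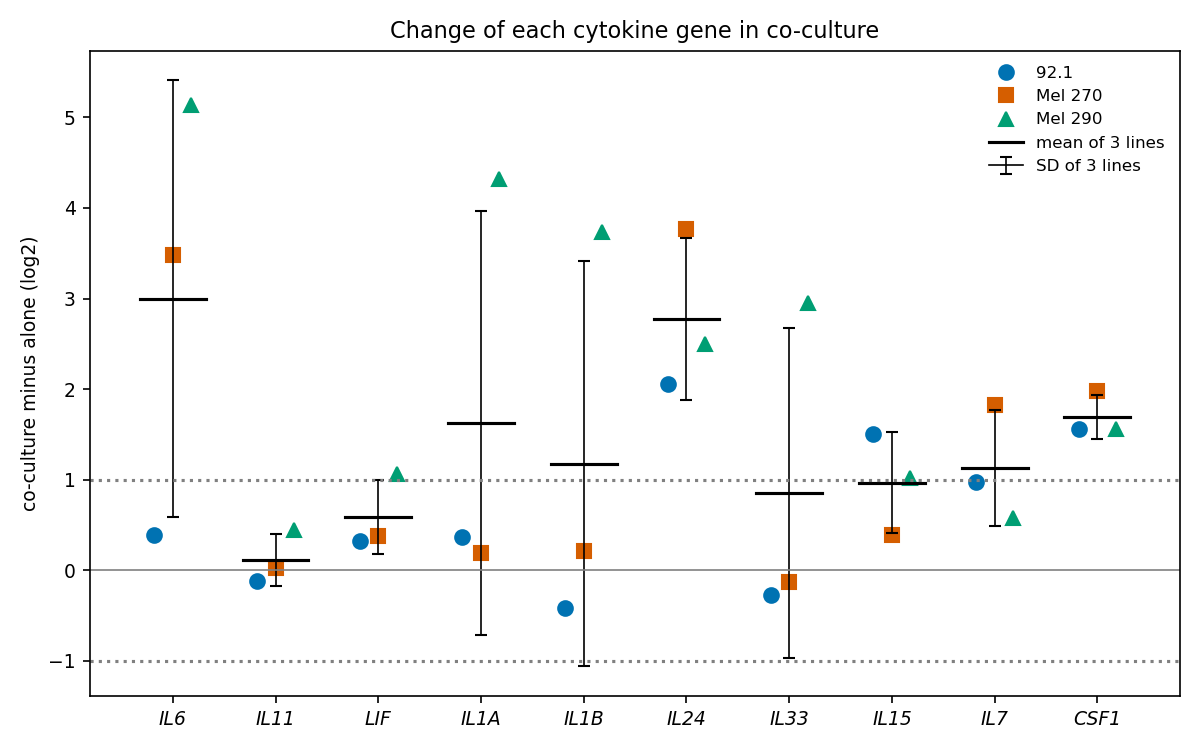
Co-culture minus alone on the log2 scale (vertical axis) for each cytokine gene, with points for 92.1 (circles), Mel 270 (squares) and Mel 290 (triangles), a bar for the mean of 3 lines and whiskers for their SD; dotted lines mark a 2-fold difference. The points of CSF1 lie close together, from 1.56 to 1.98, whereas those of IL6 run from 0.39 to 5.14.

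Among the gp130 cytokines, IL6, an inducer of acute phase proteins and of STAT3 signalling, differed most. Its level was 5.78 in 92.1, 8.67 in Mel 270 and 10.91 in Mel 290 in co-culture, against 5.39, 5.19 and 5.77 alone. All 3 arrays grown alone and the co-culture of 92.1 lay below the filter level, so IL6 stood clear of background only in the co-cultures of Mel 270 and Mel 290. Mel 290 thus had a difference of 5.14 (35.2-fold), Mel 270 one of 3.48 (11.1-fold) and 92.1 one of 0.39. With low values raised to the filter level the folds were 7.33 in Mel 270 and 34.5 in Mel 290. IL6 passed the filter on its mean only through those co-cultures. In Mel 290 its difference was rank 12 among the 18417 differences of that line, counted from the highest, in Mel 270 rank 80 and in 92.1 rank 2008. Over the lines the mean was 3.00 ± 2.41 (SD, n = 3) and did not pass (limma adjusted p = 0.16). Without 92.1 it did, at 4.31 (limma adjusted p = 0.041), in a fit of the lines through which it passed the filter, so that call is given as a description.

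LIF, which keeps stem cells undifferentiated in mouse and acts on many tissues, was above the filter level only in Mel 290. It stood at 5.66, 5.48 and 8.84 in the co-cultures of 92.1, Mel 270 and Mel 290, against 5.34, 5.10 and 7.78 alone. Both Mel 290 arrays exceeded all 4 arrays of the other lines, which lay below the filter level. The increase in Mel 290 was 1.06 (2.08-fold), and the mean of 0.59 ± 0.41 did not pass (limma adjusted p = 0.19). IL11, a cytokine of platelet formation and fibrosis, had much the same level on all 6 arrays. It read 6.41, 6.62 and 6.97 in co-culture and 6.53, 6.60 and 6.53 alone in 92.1, Mel 270 and Mel 290. Its mean difference was 0.11 ± 0.29 with a 95% interval of -0.29 to 0.52, which holds no 2-fold change (limma adjusted p = 0.77), and without Mel 290 it was -0.049.

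IL1A and IL1B are neighbouring genes on chromosome 2, and both they and IL33 stood clear of the filter level only in Mel 290. IL1A, released by damaged cells and active without cleavage, had levels of 4.42 in 92.1, 4.54 in Mel 270 and 10.16 in Mel 290 in co-culture. Alone, the levels were 4.05, 4.36 and 5.84. The difference in Mel 290 was 4.32 (20.0-fold, rank 27 in that line), against 0.36 in 92.1 and 0.19 in Mel 270, where all 4 arrays lay below the filter level. IL1B, which needs cleavage by caspase-1 to become active, followed the same order. It reached 11.15 in Mel 290, with 4.01 in 92.1 and 4.55 in Mel 270, in co-culture, against 7.42, 4.42 and 4.34 alone. Mel 290 thus carried IL1B above the filter level already without T cells and was 13.3-fold higher with them (difference 3.74, rank 34). In 92.1 and Mel 270 IL1B differed by -0.41 and 0.21 between arrays that were all below the filter level.

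IL33, a nuclear alarmin, left the low range in 1 array. Its level was 6.76 in the co-culture of Mel 290, while 92.1 and Mel 270 had 3.61 and 3.76 in co-culture and the arrays grown alone had 3.88, 3.88 and 3.80 in 92.1, Mel 270 and Mel 290. The difference in Mel 290 was 2.95, or 0.96 (1.94-fold) with low values raised to the filter level, since the array grown alone was far below it. Over the lines, IL1B averaged 1.18 ± 2.24 (limma adjusted p = 0.51), and without Mel 290 its mean was -0.10. IL1A averaged 1.62 ± 2.34 and IL33 0.85 ± 1.82, with adjusted p of 0.44 and 0.63 in the limma fit without a filter. No member of this family passed, and whether Mel 290 responds differently from the other lines could not be tested with 1 array per line and culture.

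Promoter sequences are shown for the IL-1 pair and for IL6, whose co-culture levels parted most between lines, and for IL24 and IL11, a broad and a flat pattern. They are the 250 bases before the start of each gene in RefSeq (GRCh38.p14), 5′ to 3′ on the gene's strand. Windows of 6 of the 10 members were searched. Capitals mark matches on either strand to the NF-kappaB consensus, to AP-1 (TGANTCA), to C/EBP (TTGCNNAA) or to TATAAA. Of 35116 promoter windows of this length, 5.21% held the NF-kappaB match, 6.57% AP-1, 9.05% C/EBP and 10.7% TATAAA. For IL1A the window of the more downstream of its 2 listed starts is given.
IL6, chr7:22726950-22727199, + strand: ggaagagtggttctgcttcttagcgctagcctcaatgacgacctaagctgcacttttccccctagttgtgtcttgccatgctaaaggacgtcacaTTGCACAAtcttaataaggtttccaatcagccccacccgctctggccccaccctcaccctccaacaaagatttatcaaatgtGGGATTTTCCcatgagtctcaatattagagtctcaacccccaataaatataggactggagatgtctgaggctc
IL1A, chr2:112784401-112784650, - strand: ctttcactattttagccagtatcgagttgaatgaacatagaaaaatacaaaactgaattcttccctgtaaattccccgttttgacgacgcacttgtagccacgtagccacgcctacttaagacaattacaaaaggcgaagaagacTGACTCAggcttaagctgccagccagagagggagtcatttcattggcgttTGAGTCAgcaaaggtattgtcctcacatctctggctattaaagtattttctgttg
IL1B, chr2:112836780-112837029, - strand: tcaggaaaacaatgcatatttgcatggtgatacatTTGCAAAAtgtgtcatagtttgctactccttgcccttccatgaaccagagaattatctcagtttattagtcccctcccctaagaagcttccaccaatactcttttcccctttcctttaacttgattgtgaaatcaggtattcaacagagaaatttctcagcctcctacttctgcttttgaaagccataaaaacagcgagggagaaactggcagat
IL24, chr1:206897193-206897442, + strand: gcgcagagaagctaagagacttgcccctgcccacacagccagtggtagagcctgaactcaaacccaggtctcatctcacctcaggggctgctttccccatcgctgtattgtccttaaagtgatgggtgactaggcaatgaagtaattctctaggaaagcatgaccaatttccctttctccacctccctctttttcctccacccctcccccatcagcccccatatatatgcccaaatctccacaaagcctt
IL11, chr19:55370464-55370713, - strand: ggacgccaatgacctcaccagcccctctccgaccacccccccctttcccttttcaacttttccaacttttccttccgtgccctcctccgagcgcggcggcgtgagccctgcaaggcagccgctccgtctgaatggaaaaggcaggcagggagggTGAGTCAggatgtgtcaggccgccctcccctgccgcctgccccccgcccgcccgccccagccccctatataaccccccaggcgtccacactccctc

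IL6 held 1 NF-kappaB match, 73 to 64 bases before the start, and 1 C/EBP match, 155 to 148 bases before it. IL1A held 2 AP-1 matches, IL11 held 1 and IL1B held 1 C/EBP match. No motif searched was found in the IL24 window or in the IL33 windows, which are not printed. That says only that these letters are not in them. The matches are letters only, and binding was not measured.

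IL24 and CSF1 were the cytokine genes at least 2-fold higher in every line. IL24 had levels of 7.28, 10.39 and 8.99 in the co-cultures of 92.1, Mel 270 and Mel 290, against 5.23, 6.62 and 6.49 alone. Every co-culture array exceeded every array grown alone. Mel 270 had the largest difference, 3.77 (13.7-fold, rank 71), followed by Mel 290 with 2.50 (5.64-fold) and 92.1 with 2.05 (4.15-fold). The mean of 2.77 ± 0.89 had a 95% interval of 1.90 to 3.65 and missed the threshold (limma adjusted p = 0.065). Without Mel 270, the line with the largest difference, it passed, at 2.27 (limma adjusted p = 0.012). It did not without 92.1 (3.13, limma adjusted p = 0.060) or without Mel 290 (2.91, limma adjusted p = 0.12). Over all alternatives but the one without Mel 270, limma adjusted p ran from 0.055 (filter at the 50th percentile) to 0.67 (no cell line block).

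CSF1, the macrophage growth factor, had the most even response. Co-cultures of 92.1, Mel 270 and Mel 290 had levels of 9.49, 9.97 and 11.53, against 7.93, 7.99 and 9.97 alone. Each line was higher with T cells, but the groups overlapped, because Mel 290 alone was as high as Mel 270 in co-culture. The differences were 1.56, 1.98 and 1.56, with a mean of 1.70 ± 0.24 (3.24-fold, SE 0.15, 95% interval 1.32 to 2.08). It passed with limma adjusted p = 0.026. With 2 lines left in the fit CSF1 lost the call without 92.1 (1.77, limma adjusted p = 0.082) and without Mel 290 (1.77, limma adjusted p = 0.072), and without the cell line block the limma adjusted p was 0.92.

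The lymphocyte growth factors IL15 and IL7 were highest in different lines, IL15 in Mel 290 and IL7 in 92.1. IL15, which sustains natural killer and memory T cells, had levels of 6.10, 5.19 and 7.08 in co-culture and 4.60, 4.80 and 6.06 alone in 92.1, Mel 270 and Mel 290. Its difference was 1.50 for 92.1, 0.39 for Mel 270 and 1.02 for Mel 290, the line in which both arrays lay above the filter level. With low values raised to that level, Mel 290 kept 1.02 and 92.1 had 0.31. IL7, needed for T cell survival, had 7.16, 6.51 and 5.36 in co-culture and 6.18, 4.69 and 4.79 alone. It was thus highest in 92.1, where both arrays lay above the filter level and differed by 0.98 (1.97-fold). In Mel 270 the difference was 1.83 (3.55-fold), or 0.72 (1.64-fold) with low values raised, since the array grown alone was below that level. Mel 290, which led for 8 of the 10 genes in co-culture, had IL7 below the filter level on both arrays. Without a filter, IL15 (0.97 ± 0.56) and IL7 (1.13 ± 0.64) had limma adjusted p of 0.14 each. With low values raised their mean differences shrank to 0.44 and 0.56.

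**Figure D3:**
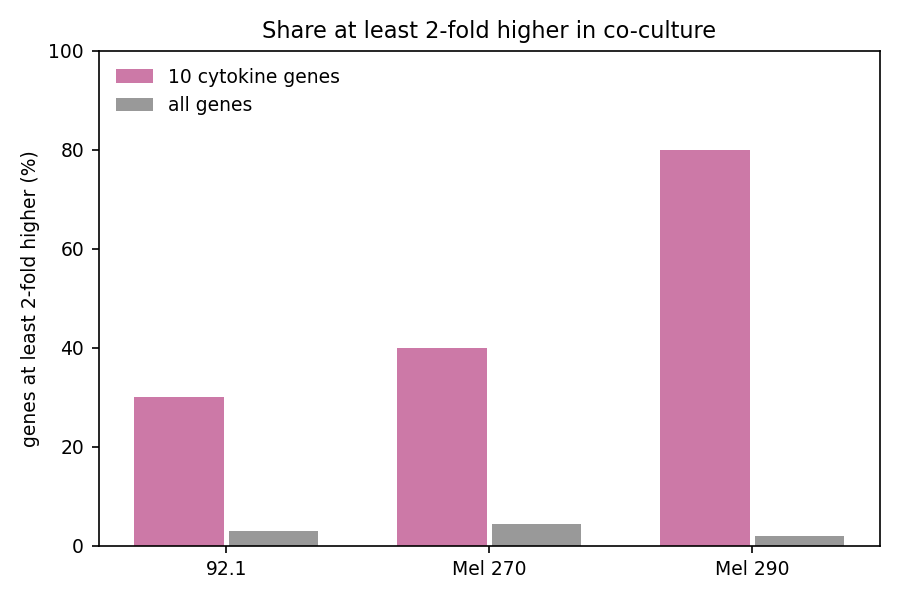
Percentage of genes at least 2-fold higher in co-culture than alone (vertical axis) in each line, for the 10 cytokine genes (left bars) and all 18417 genes (right bars), 1 pair of arrays per line and no error bars. The cytokine genes reach 80.0% in Mel 290, 40.0% in Mel 270 and 30.0% in 92.1, while all genes stay below 5%.

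The same limma fit also gave each line against the mean of the other 2, over both cultures. The spread in this fit holds the unequal responses of the lines. Mel 290 had higher CSF1 (by 1.90, adjusted p = 0.0025), LIF (by 2.91, adjusted p = 0.0017) and IL1B (by 4.95, adjusted p = 0.016), against 11.3% of tested genes that were higher in it. LIF and IL1B passed the filter on low values only through Mel 290 and had to differ there, so counts of calls between lines are not read against the shares of tested genes. Without a filter, IL15 (by 1.40, adjusted p = 0.018) and IL1A (by 3.66, adjusted p = 0.046) were also higher in Mel 290, against 9.19% of genes. Line 92.1 had lower CSF1 (difference -1.15, adjusted p = 0.015) and IL24 (-1.87, adjusted p = 0.033), where 6.18% of tested genes were lower. Mel 270 had lower CSF1 (-0.75, adjusted p = 0.040), where 7.62% were. CSF1 averaged 8.71 in 92.1, 8.98 in Mel 270 and 10.75 in Mel 290. The lower CSF1 calls of 92.1 and Mel 270 thus largely restate its high level in Mel 290. LIF was also called lower in 92.1 (-1.30) and Mel 270 (-1.61), but both lines lay below the filter level, and these values restate its high level in Mel 290. IL7 was higher in 92.1 without a filter (by 1.33, adjusted p = 0.040), where 8.04% of genes were. IL6, at 5.19 to 5.77 alone, did not pass in any of these contrasts (adjusted p 0.17 or more).

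The receptors of these cytokines gave no call. Of 16 listed receptor genes 11 were tested and none passed in limma, with a median difference of 0.085, against -0.041 over all tested genes. At an unadjusted p under 0.05 in limma, 3 of the 11 were higher and 0 lower, against 7.02% and 13% of tested genes. The shared subunit IL6ST had 11.90, 12.12 and 11.48 in co-culture and 10.67, 10.54 and 10.90 alone in 92.1, Mel 270 and Mel 290, so the groups did not overlap. Its mean difference was 1.13 ± 0.51 (limma adjusted p = 0.092). LIFR, the LIF-binding subunit, differed by 1.27 ± 1.23 (limma adjusted p = 0.22), with 2.50 in Mel 270 and 0.052 in 92.1. Of STAT3 and its response genes 8 of 8 were tested and none passed in limma, with a median of 1.30. By the same unadjusted threshold, 6 of the 8 were higher and 0 lower, against 7.02% and 13% of tested genes. In all 3 lines 6 were higher, against 15.3% of all genes, in a list chosen with earlier results of these data known. CEBPD, a transcription factor of the acute phase, differed by 2.12 ± 1.29 (limma adjusted p = 0.11) and the AP-1 subunit JUNB by 1.73 ± 0.56 (limma adjusted p = 0.066).

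Genes that mature or oppose the IL-1 family were tested for 6 of 9. CASP1, the protease that cleaves the IL1B precursor, rose by 2.78 ± 0.70 (limma adjusted p = 0.042). Its level was 6.98, 7.49 and 8.46 in co-culture, against 3.83, 4.28 and 6.48 alone in 92.1, Mel 270 and Mel 290. The groups did not overlap, and alone only Mel 290 was above the filter level. The CASP1 mean alone was 4.86, so CASP1 passed the filter only through its co-cultures, and its call is given as a description. With no filter its limma adjusted p was 0.049. CASP4 (2.40 ± 1.19, limma adjusted p = 0.089) and IL18BP, a secreted decoy for the related cytokine IL18 (2.04 ± 0.62, limma adjusted p = 0.065), did not pass. CASP1 lost its call without 92.1 (limma adjusted p = 0.095), after cyclic loess (0.078) and with low values raised to the filter level (1.62, 0.062). The CASP1 transcript was thus higher in all 3 lines, while IL1B itself lay above the filter level only in Mel 290.

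NF-kappaB factors and their inhibitors were higher in each of 3 lines for 9 of 9 genes, against 15.3% of all genes, with a median of 1.59. That list was chosen with earlier results of these data known, so the count is a description. NFKBIZ, a nuclear cofactor needed for IL6 induction in mouse cells, rose by 2.48 ± 0.45 (limma adjusted p = 0.022). TNFAIP3, which ends NF-kappaB signalling, rose by 4.09 ± 1.01 (limma adjusted p = 0.036). NFKBIA (3.37 ± 1.26, limma adjusted p = 0.070) and NFKB1 (1.98 ± 0.83, limma adjusted p = 0.080) did not pass. Both calls were lost without 92.1 (limma adjusted p = 0.067 for NFKBIZ and 0.074 for TNFAIP3), that of NFKBIZ also without Mel 290 (0.062) and that of TNFAIP3 after cyclic loess (0.066). Without Mel 270, NFKBIA (limma adjusted p = 0.013) and NFKB1 (0.045) passed. In 92.1, where IL6 stayed below the filter level, NFKBIZ was 2.56 and TNFAIP3 4.58 higher. Regulators of cytokine mRNA decay gave 0 of 8 past the threshold in limma, with a median of 0.096. At an unadjusted p under 0.05 in limma, 2 of the 8 were higher and 0 lower, against 7.02% and 13% of tested genes. ZFP36, which binds AU-rich elements, differed by 1.79 ± 0.79 (limma adjusted p = 0.083). The endonuclease gene ZC3H12A, whose product degrades IL6 mRNA, differed by 1.48 ± 1.34 (limma adjusted p = 0.20). ZC3H12A was 2.68 higher in Mel 270, 1.72 in Mel 290 and 0.039 in 92.1. IL6 differed by 3.48, 5.14 and 0.39 in the same lines, and a link between the 2 genes was not tested.

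**Figure D4:**
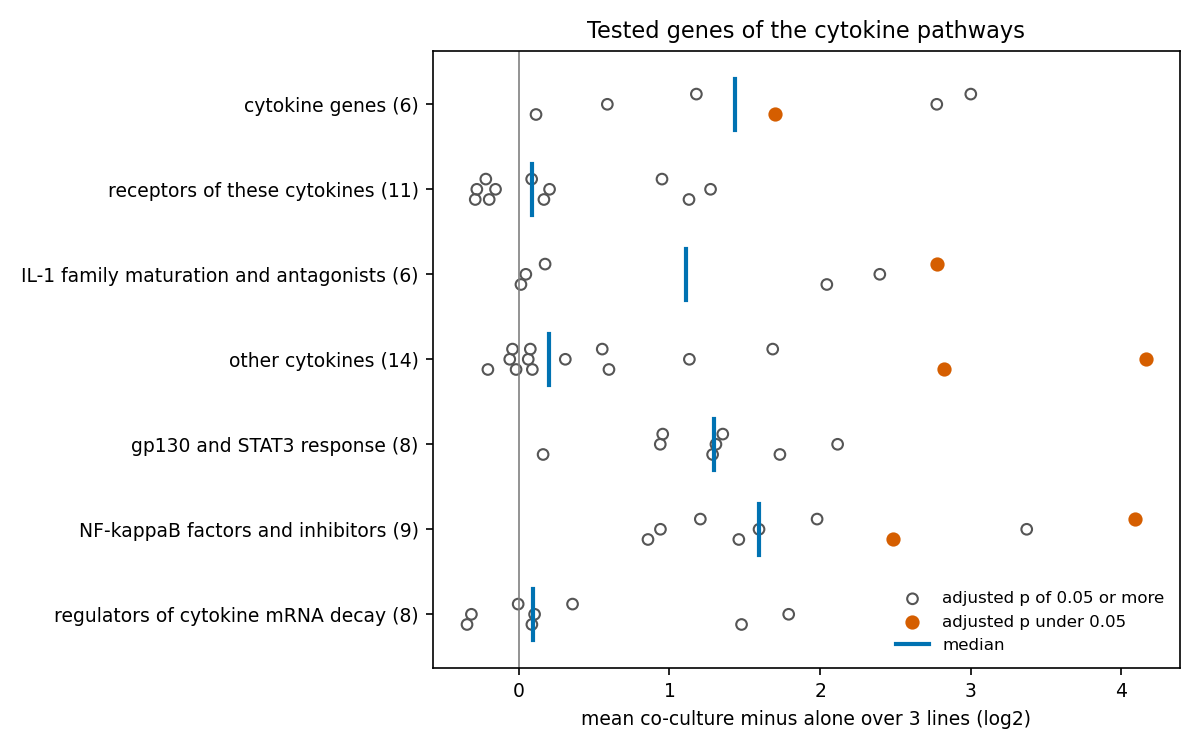
Mean co-culture minus alone over 3 lines on the log2 scale (horizontal axis) of the tested genes in each group, with the number of genes in brackets; filled points passed an adjusted p of 0.05 in limma, open points did not, and vertical bars are medians. NF-kappaB genes all lie right of 0, with TNFAIP3 (4.09) and NFKBIZ (2.48) filled.

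Of 37 other cytokines 33 had a probe set and 14 were tested. IL32, a proinflammatory cytokine, rose by 4.16 ± 0.62 (limma adjusted p = 0.0090), and EBI3, a subunit of IL27 and IL35, rose by 2.82 ± 0.71 (limma adjusted p = 0.042). The B cell survival factor TNFSF13B (1.69 ± 0.43, limma adjusted p = 0.055) and TNF (1.13 ± 0.90, limma adjusted p = 0.17) did not pass. The median of these 14 was 0.20. IL32 kept its call without any 1 line, while EBI3 lost it without 92.1 (limma adjusted p = 0.051), without Mel 290 (0.098) and after cyclic loess (0.073).

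Patterns over the 6 arrays were compared as a description, among tested genes that are not members. The genes most like IL6 were the complement factor gene CFB (Pearson r = 0.984), PDZK1IP1 (r = 0.982) and TBC1D12 (r = 0.980). CFB was 4.56 higher in Mel 290, 4.18 in Mel 270 and 0.97 in 92.1, while TBC1D12 differed by at most 0.48. CLDN12 (r = 0.998), LATS2 (r = 0.995) and PDCD1LG2 (r = 0.990) were most like CSF1. PDCD1LG2, which encodes a PD-1 ligand, was 2.43, 2.62 and 2.56 higher in co-culture in 92.1, Mel 270 and Mel 290. For IL15 the genes were FAM219B (r = 0.984), ZNF469 (r = 0.982) and NT5C2 (r = 0.980), whose differences were 0.46 or less. The 6 points share lines and cultures, and r takes no account of the size of a change.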

How the data were processed

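The values are log2 expression per probe set, deposited as 1 table of 33297 probe sets and 6 arrays. The submitters' processing notes name Affymetrix Expression Console 1.2.0.20. Not given in the sources used here are the background correction, the summarization and the normalization behind these deposited log2 values. Array medians lay between 6.63 and 6.69, so values were used as deposited. GEO's array annotation named 19460 probe sets with 1 symbol, and 19429 of them matched a RefSeq gene (GRCh38.p14). The probe set with the highest mean stood for each of 18417 genes, and those with a mean at or above the 25th percentile were tested.

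Co-culture was compared with growth alone in limma 3.58.1 (R 4.3.3, lmFit and eBayes) with a block for cell line, since every line was grown both ways. Replicates are the lines. The p-values rest on the spread of a gene between them, drawn by eBayes towards the spread of all tested genes. A p-value can thus be lower than the 3 lines of that gene alone would give. The block left 2 residual degrees of freedom for each gene, plus a prior worth 3.10 from all tested genes. Benjamini-Hochberg adjustment ran over all tested genes. An exact permutation test within 3 pairs cannot go below p = 0.25. The fit was tested on simulated data. Alternatives changed the filter, normalization, low values, probe sets, block and variance prior, or left out 1 line. Genes were named by rule: all members, and from each list those past the threshold plus the 2 tested genes with the largest remaining change. For IL6, CSF1 and IL15 the 3 genes of highest Pearson r were added. Members and lists were chosen with earlier results of these data known.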

Additional observations from a re-analysis of the deposited data

Results flagged for a closer look

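IL1B and IL33 differed in opposite directions in different lines, by more than the median absolute difference of 0.22 over all genes and lines. IL1B was 3.74 higher in Mel 290 in co-culture and differed by -0.41 in 92.1. IL33 was 2.95 higher in Mel 290 and differed by -0.27 in 92.1. Both arrays of 92.1 lay below the filter level for both genes, as did IL33 in Mel 290 alone. With low values raised to that level the difference in Mel 290 was 3.74 for IL1B and 0.96 for IL33, and in 92.1 it was 0 for both. The difference between the lines was not tested, since each had 1 array per culture.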

How the results depend on the processing

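CSF1 was the member called higher with no filter, a filter at the 50th percentile, cyclic loess, raised low values, averaged probe sets and a variance trend. Without the cell line pairing (no replicate block) 0 members were called (CSF1 1.70, adjusted p = 0.92), 18 genes were higher and 0 lower, against 57 and 5. Leaving out 1 line gave 0 to 2 members higher: IL6 without 92.1, CSF1 and IL24 without Mel 270, none without Mel 290. It gave 47 to 76 genes higher and 2 to 9 lower. Over these 3 omissions the mean difference ran from -0.049 to 0.23 for IL11 and from -0.10 to 1.97 for IL1B, each lowest, and negative, without Mel 290, and the cause was not tested. Genes lower numbered 9 with a filter at the 50th percentile, 1 after cyclic loess and 9 with a variance trend. Member calls between lines fell to 4 with a filter at the 50th percentile, against 8, since fewer members were tested. Counts of members at least 2-fold higher, checked with settings chosen after seeing the data, stayed within 1.5 times. In Mel 290 cyclic loess gave 6, against 8, as LIF (0.96) and IL15 (0.91) dropped below 2-fold. Of 60 single-member alternatives, 53 were unchanged, which for tested members means the same direction and side of the threshold. IL1A, IL33, IL15 and IL7 had only the fit without a filter, which returns the same mean difference and could not move. A changed filter, block, variance trend or averaged probe sets left each member's mean difference as it was, so only its p-value could move. For 17 other named genes, checked after seeing the data, 147 of 167 kept direction and side of the threshold. Of the rest, 14 lost a call, 6 gained one and none turned direction. The gains came from leaving out 1 line, for CASP4, CEBPD and ZFP36 without Mel 290 and for IL18BP, NFKBIA and NFKB1 without Mel 270. IL6 and IL33 were below the filter in every line grown without T cells, which limits their fold changes.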

Other observations

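Some cytokine genes outside the naming rule, chosen after their values were seen, differed in 1 or 2 lines. TSLP, an epithelial cytokine that acts on dendritic cells, stood at 7.04 in 92.1 in co-culture, against 4.67 alone, a difference of 2.37, or 1.24 with low values raised to the filter level. It stayed at 3.97 or below on the 4 arrays of Mel 270 and Mel 290. KITLG, the ligand of the melanocyte growth factor receptor KIT, was lower in co-culture in 92.1 (difference -1.28) and Mel 270 (-1.21) and differed by 0.07 in Mel 290, with all 6 arrays below the filter level. IL18 was found above the filter level on 1 array only, Mel 290 alone, at 7.29, against 5.76 in its co-culture. IL1RN, which encodes the antagonist of the IL-1 receptor, had 6.13 in co-culture and 4.71 alone in Mel 290, a difference of 1.41, or 0.33 with low values raised to the filter level, and its other 4 arrays lay below that level. IL7R, the receptor of IL7, was a Mel 290 transcript, at 10.42 in co-culture and 9.75 alone, and at 3.96 or below in the other lines. OSMR, a partner of gp130 in the receptor for oncostatin M, was 2.56 higher in 92.1 and lay at 4.32 in co-culture and 4.44 alone in Mel 270. None of these differences has a replicate within its line.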
